A study of Mus musculus with 8 samples.

Results

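RNA recovered with the EVEN set of antisense probes against the long noncoding RNA Lhx1os was compared with RNA recovered with probes against bacterial LacZ. The comparison rests on 4 of the 8 libraries of the study, EVEN replicates 1 and 2 and LacZ replicates 1 and 2. They were chosen by their labelled treatment and paired by the replicate number that the labels give as a batch. All libraries came from mouse embryonic stem cells of the HBG3 line, which carries the HB9::GFP motor neuron reporter, differentiated into spinal motor neurons and kept for 3 days after plating. EVEN and ODD are biotinylated DNA probe sets of 20 nt that tile the isoforms of Lhx1os, LacZ probes have no matching RNA in mouse cells, and Input is RNA before capture. The labels describe the replicates as independent experiments but do not say whether separate differentiations were used. They mention no sort for the reporter. Of 16524 genes with enough counts to test, 33 were recovered at least 2-fold above LacZ in both experiments, and 24 were at least 2-fold below it.

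In this assay biotinylated DNA oligonucleotides hybridise to a chosen RNA, streptavidin beads draw it out, and RNAs bound to it, or to the probes themselves, come along. Alternate probes along the target are split into sets, so that an RNA held by the target should appear with either set. Lhx1os is transcribed from the region next to Lhx1, a LIM homeobox gene that acts in motor neurons of the lateral motor column and in spinal interneurons. Noncoding RNAs can pair with messenger RNAs through short stretches of complementary or repetitive sequence, and an oligonucleotide probe can pair with any RNA that holds part of its target.

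Total counts were between 7632775 (LacZ 1) and 11906096 (EVEN 1) in the 4 libraries, so values of a few counts are the least precise in LacZ 1. The intervals given below cover counting error only. Motor neuron genes were present: all 20 genes of a list of LIM and motor neuron identity factors could be tested, including Mnx1 (the gene of HB9) at 48.3 and 69.0 CPM (counts scaled to the size of the library) in Input. Progenitor and glial genes were present too (15 of 17 tested), as were mesenchymal genes (12 of 12). Of 10 pluripotency genes 4 could be tested, with a summed level of 9.11 and 23.2 CPM in Input. In RNA from a whole culture, the number of cells of a type and the RNA per cell cannot be told apart.

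Lhx1os (ENSMUSG00000087211, chromosome 11, 84525660 to 84535831, plus strand, GRCm38) was the RNA most enriched by the EVEN probes. It had 1767 counts in EVEN 1 and 283 in EVEN 2, against 16 in LacZ 1 and 28 in LacZ 2. As CPM with library sizes scaled by TMM, which evens out differences in composition, these are 150 and 25.4 against 2.06 and 2.44. Both EVEN libraries were above both LacZ libraries, but the second experiment recovered far less. Within an experiment Lhx1os was 72.5-fold above LacZ in replicate 1 (95% interval 44.5 to 127, exact conditional binomial) and 10.4-fold in replicate 2 (7.07 to 16). Input held 55 and 61 counts. Lhx1os ranked first of the 16524 genes by the ratio over LacZ in each experiment, and by FPKM, a level per transcript length, it ranked 99th and 1154th in EVEN.

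The exons of the 589-nt isoform of Lhx1os (GENCODE M21) are shown because several enriched RNAs share short stretches with them. Exons 1, 3, 4 and 5 overlap exons of all 3 isoforms and exon 2 is in 1. Capitals mark the stretches named in the text: 13 bases shared with Rad21 in exon 1, 15 shared with Itm2a in exon 3, those shared with Erp29, Paf1 and Efcab7 in exon 4, and those shared with Rtca and with other genes in exon 5. The sequences of the probes are not in the sources used here, so no stretch can be assigned to a probe.
exon 1: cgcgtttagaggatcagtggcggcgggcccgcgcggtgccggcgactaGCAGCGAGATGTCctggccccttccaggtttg
exon 2: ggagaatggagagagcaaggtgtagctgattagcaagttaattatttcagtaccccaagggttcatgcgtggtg
exon 3: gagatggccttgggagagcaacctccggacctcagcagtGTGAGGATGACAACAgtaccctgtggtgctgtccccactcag
exon 4: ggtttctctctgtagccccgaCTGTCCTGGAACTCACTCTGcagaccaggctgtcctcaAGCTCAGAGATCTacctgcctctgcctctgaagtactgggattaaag
exon 5: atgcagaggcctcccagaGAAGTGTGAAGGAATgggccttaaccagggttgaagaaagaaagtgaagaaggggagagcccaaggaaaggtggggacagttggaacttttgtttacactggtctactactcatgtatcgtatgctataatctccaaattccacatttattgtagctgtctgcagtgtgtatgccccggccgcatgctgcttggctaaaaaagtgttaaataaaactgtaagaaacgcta
They lie at chr11:84525669-84525748, chr11:84533383-84533456, chr11:84534480-84534560, chr11:84535116-84535221 and chr11:84535584-84535831.

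Across all genes, edgeR's quasi-likelihood test on the 8 libraries called 0 genes higher in EVEN than in LacZ at an adjusted p of 0.05 (0% of those tested), and 0 lower. At an unadjusted p under 0.05, 166 genes were higher (1%) and 117 lower (0.708%), 283 in all. With the replicate as a block on all libraries, 0 genes were called and 648 had an unadjusted p under 0.05, of which 385 were higher (2.33%). Lhx1os itself had a log2 difference of 5.27 (SE 1.13, edgeR adjusted p = 1). With the block in a fit of the 4 EVEN and LacZ libraries alone, 15 of 16019 genes were called, all higher in EVEN (0.0936%), among them Lhx1os at a log2 difference of 4.84 (edgeR adjusted p = 0.01793). The block gave Lhx1os an edgeR adjusted p of 0.5759 on all libraries, and of 0.1824 on the 6 pull-down libraries, where 0 genes were called. DESeq2 without its independent filter on low means called 8 genes, all higher (0.0484%), with Lhx1os among them. With that filter, its default, it called 12 genes and gave Lhx1os no adjusted p. Ptma, Rnf5, Vps26a and Lhx1os were called both by the block on 4 libraries and by DESeq2 without the filter.

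The 33 genes above LacZ in both experiments (0.2% of those tested) were chosen by their ratio, so their ratios are given as a description. They were Lhx1os, 28 protein-coding genes (0.208% of the protein-coding genes tested), the pseudogenes Gm4617 and Gm9800, the lincRNA 2310040G24Rik and the Cajal body RNA Scarna2. The rule asked for at least 10 counts in each EVEN library. In 31 of the 33 the ratio was higher in replicate 1 than in replicate 2. Without Lhx1os they took 1.33% of the counts in EVEN 1 and 0.383% in EVEN 2, against 0.183% and 0.163% in LacZ. Just inside the threshold lay Nupr1l, Gm9800 and Scarna2, with a smaller log2 ratio of 1.02. Cacng3 at 0.99, Otub1 at 0.98, Ppm1g at 0.97 and Pdia4 at 0.95 lay just outside.

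**Figure D1:**
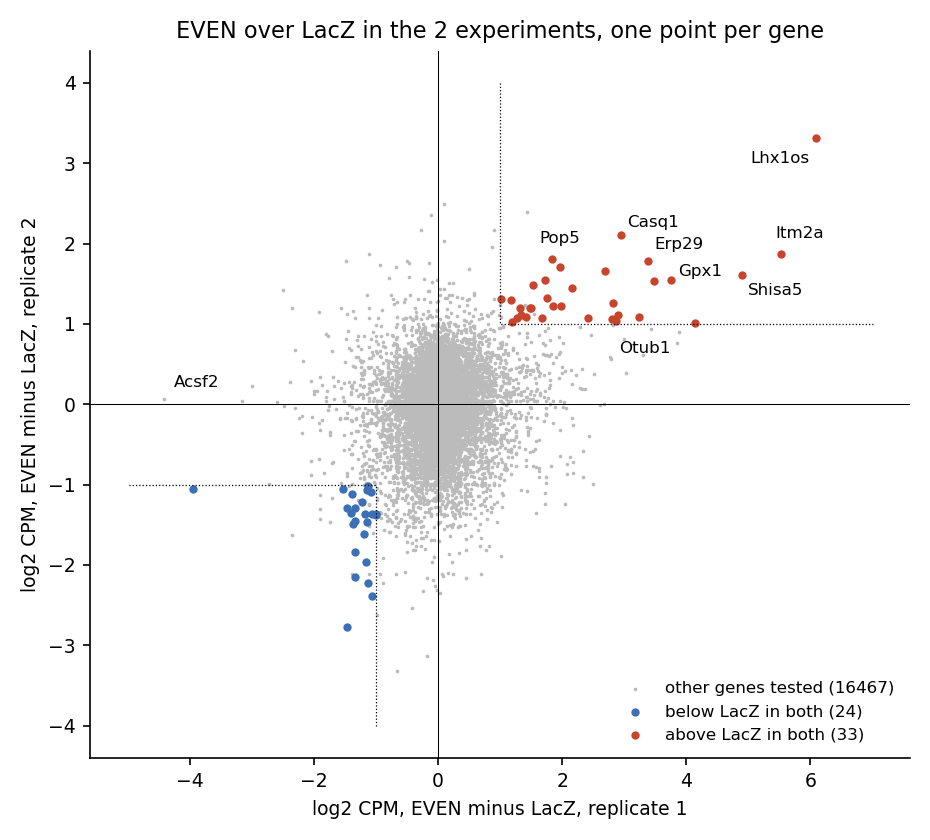
Difference in log2 CPM between EVEN and LacZ in replicate 1 (x axis) and replicate 2 (y axis), one point per tested gene, with dotted lines at the 2-fold rule. Lhx1os lies farthest to the upper right at 6.08 and 3.31, and the genes above LacZ in both experiments spread much farther along the replicate 1 axis.

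The members are described below by what their products are known to do. This ordering was made by hand and was not tested for enrichment. Some are membrane or secretory pathway proteins. Itm2a, an integral membrane protein with a BRICHOS domain, had 168 and 6.74 CPM in EVEN against 3.48 and 1.74 in LacZ. Both EVEN libraries were above LacZ, but the gap was 48.2-fold in replicate 1 and 3.87-fold in replicate 2. Shisa5, a membrane protein of the endoplasmic reticulum and nuclear envelope, had 350 and 29.3 CPM against 11.6 and 9.49. Erp29, a chaperone of the endoplasmic reticulum lumen, had 798 and 175 CPM against 76.3 and 50.9. Its ODD libraries were also high, at 1310 and 125 CPM. Casq1, the calcium-binding protein of the muscle sarcoplasmic reticulum, was rare but differed in both experiments, with 47 and 22 counts in EVEN against 3 and 4 in LacZ. Vps26a, a subunit of the retromer that sorts endosomal cargo, had 262 and 122 CPM against 66.3 and 52.0. Rnf5, a membrane-bound ubiquitin ligase, had 159 and 99.1 CPM against 47.1 and 39.7. Tmco1, a calcium channel of the endoplasmic reticulum, had 142 and 54.2 CPM against 62.9 and 22.0, so that EVEN 2 fell below LacZ 1 and the groups overlapped.

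Other members encode nuclear proteins or act on RNA. Ptma, which encodes the very acidic nuclear protein prothymosin alpha, had 1520 and 605 CPM in EVEN against 235 and 192 in LacZ. The processed pseudogenes Gm4617 and Gm9800 share 93.7% and 79.4% of their 31-nt words with Ptma transcripts, so their reads cannot be told apart with certainty from those of Ptma. Pop5, a protein subunit of RNase P and RNase MRP, had 32.9 and 19.3 CPM against 9.15 and 5.40, a ratio of 3.6-fold and 3.58-fold. Ccdc12, a component of the spliceosome, had 93.0 and 56.0 CPM against 23.7 and 17. Paf1, a subunit of the elongation complex named after it, had 140 and 92.3 CPM against 58.1 and 43.6. Rad21, the cleavable subunit of cohesin, had 1640 and 432 CPM against 224 and 211. Rtca, the RNA 3'-terminal phosphate cyclase, had 233 and 82.5 CPM against 43.7 and 39.1. Znhit6, an assembly factor for box C/D small nucleolar particles, had 47.0 and 39.5 CPM against 16.8 and 17.1. Scarna2, a guide RNA of Cajal bodies, had 159 and 123 CPM against 69.5 and 60.4. In each of these genes the lower EVEN library was above the higher LacZ library, which the choice of members by these ratios makes likely.

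Cplx2 and Rab3c, which act at synapses, had the highest levels of the set in both EVEN libraries. Cplx2, a complexin that binds the synaptic vesicle fusion machinery, had 3690 and 975 CPM in EVEN against 329 and 336 in LacZ. Rab3c, a small GTPase of synaptic vesicles, had 2900 and 782 CPM against 414 and 376. LacZ values of these genes were close between the experiments, and EVEN values were not. Among enzymes, Gpx1, the glutathione peroxidase that carries selenocysteine, had 868 and 158 CPM against 64.5 and 54.0. Lpl, lipoprotein lipase, had 52.5 and 66.5 CPM against 18.4 and 29.0, with the higher EVEN level in replicate 2. Trap1a, an X-linked tumour antigen gene with long acidic repeats, had 33.9 and 11 CPM against 7.48 and 3.92. Efcab7, a protein of the ciliary base, had 331 and 80 counts in EVEN against 22 and 38 in LacZ. K230010J24Rik had 125 and 29 against 10 and 13, and Gm3854 had 287 and 145 against 58 and 70. Erich2 had 34 and 40 counts against 6 and 13, and Drc7, of the dynein regulatory complex of motile cilia, had 18 and 25 against 4 and 11. The least covered members were Bco1, Mnd1, Gm11627, Nupr1l and 2310040G24Rik, which had 10 to 18 counts in each EVEN library and 1 to 7 in each LacZ library.

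**Figure D2:**
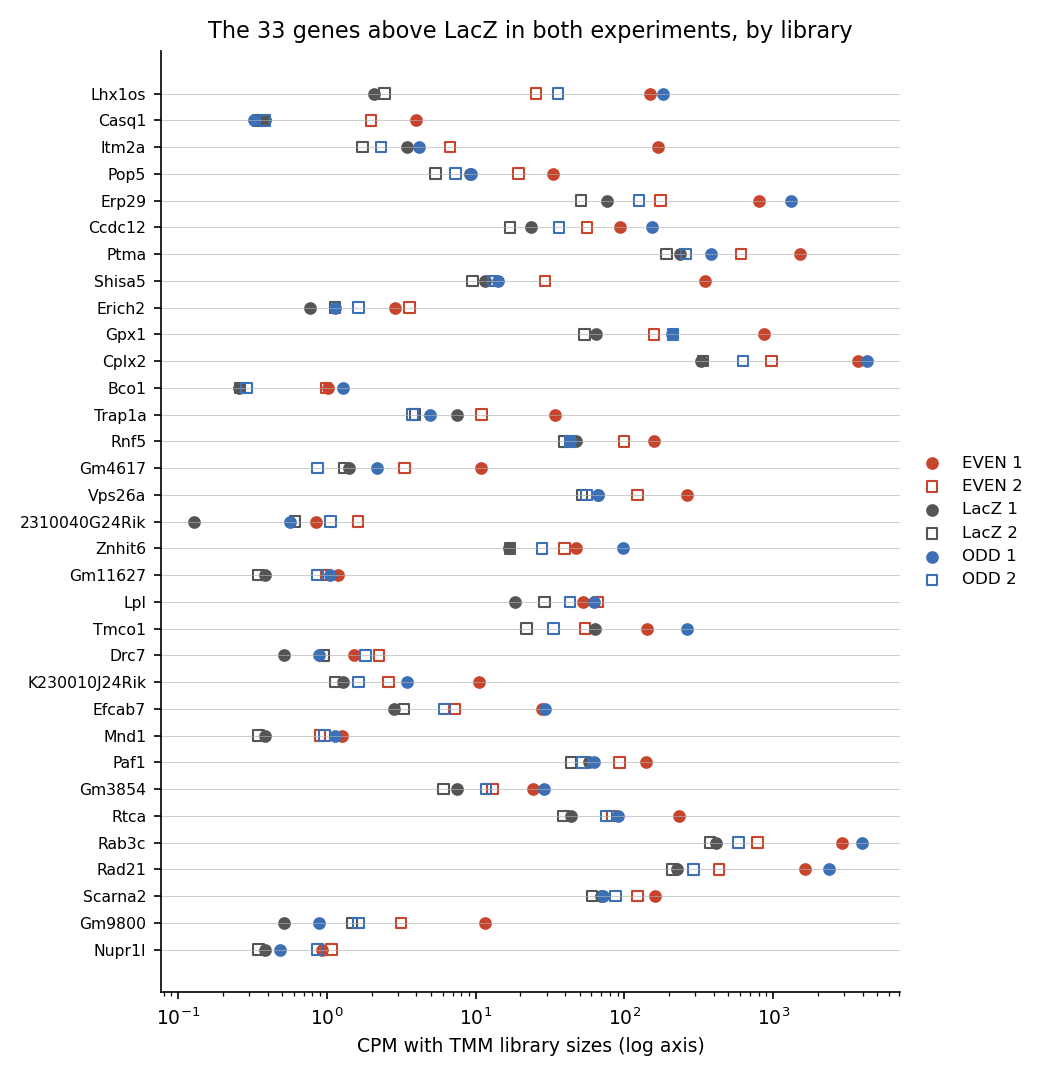
CPM with TMM-scaled library sizes (log axis) of the 33 genes in the EVEN, LacZ and ODD libraries, filled circles for replicate 1 and open squares for replicate 2, ordered by the smaller of the EVEN over LacZ ratios. Several genes, such as Itm2a, Shisa5 and Rnf5, are high with EVEN probes and near LacZ with ODD probes, and others, such as Erp29 and Ccdc12, are at least 2-fold above LacZ with ODD probes too. Cplx2 and Rad21 are so in replicate 1 only.

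The ODD probes, which lie on the same RNA at other positions, gave different ratios for different members. ODD and EVEN were both set against the same LacZ libraries, so their ratios over LacZ are shown side by side and were not correlated. Those LacZ libraries also chose the members, so counts of members by ODD over LacZ are not an independent measurement of them. Of the 33 genes, 5 were at least 2-fold above LacZ in both ODD experiments with at least 10 counts in each ODD library (0.0605% of all genes were), and 14 were below 2-fold in both. Gm11627 passed 2-fold in both too, with 13 and 9 counts. Lhx1os had log2 ratios of 6.35 and 3.79 with ODD and 6.08 and 3.31 with EVEN. Erp29 had 4.10 and 1.30 with ODD, Gpx1 had 1.69 and 1.97, Ccdc12 had 2.67 and 1.09, and Mnd1 had 1.26 and 1.16 on few counts. Cplx2 (3.69 and 0.89), Rab3c (3.26 and 0.63), Rad21 (3.39 and 0.46), Efcab7 (3.30 and 0.87) and Znhit6 (2.54 and 0.70) passed 2-fold with ODD in replicate 1 only.

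Other members had high ratios with EVEN and ratios below 2-fold with ODD. Itm2a had log2 ratios of 0.26 and 0.38 with ODD, against 5.53 and 1.87 with EVEN. Shisa5 had 0.28 and 0.46 with ODD, against 4.90 and 1.61. For Rnf5 the ODD values were -0.13 and 0.12, for Vps26a -0.01 and 0.10, for Trap1a -0.59 and -0.06, and for Casq1 -0.19 and 0.10. The direct contrast of EVEN with ODD uses no LacZ library. At an unadjusted edgeR p under 0.05, 11 of the 33 were higher in EVEN (0.527% of all genes were) and 0 were higher in ODD. These 11 were Casq1, Gm4617, Gm9800, Itm2a, Paf1, Pop5, Ptma, Rnf5, Shisa5, Trap1a and Vps26a. The smallest of these p-values were 0.00059 for Casq1 and 0.000633 for Rnf5, and 0 of the 33 passed after Benjamini-Hochberg adjustment by edgeR. The EVEN libraries that chose the members also enter this contrast, so it is not an independent measurement of them.

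ODD against Input shares no library with the choice of members. By that measure 3 of the 33 genes were at least 2-fold up in both experiments, against 8.28% of all genes tested and 0.914% of the protein-coding ones. They were Lhx1os (log2 6.22 and 3.52), Cplx2 and Gpx1. EdgeR called 1 of the 33 for ODD over Input, Lhx1os (log2 difference 5.36, SE 1.09, adjusted p = 0.03217), against 6.46% of all genes. EVEN itself was at least 2-fold above Input in both experiments for 9 of the 33 (7.24% of all genes). The EVEN libraries also chose the members, so this count is no separate support for them. For EVEN against Input edgeR called 888 genes higher (5.37%) and 47 lower, and 0 genes when Input 1 was left out. Lhx1os was among the higher ones, with a log2 difference of 5.06 (SE 1.08, edgeR adjusted p = 0.04333).

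Sequence was then examined, since it played no part in the choice of members. A same-strand stretch of 15 bases or more shared with Lhx1os was found in 3 of the 32 members other than Lhx1os (9.38%). It was found in 9.76% of all genes, a like share. The shares were not adjusted for length, and members had shorter transcripts (median 1820 nt against 3220 nt). Itm2a shared 15 bases of exon 3 in its coding sequence (chrX:107399170-107399184, minus strand). Erp29 shared 20 bases of exon 4 in an annotated 3' UTR, and Paf1 shared 17 of the same bases in a retained-intron transcript. That part of exon 4 resembles the B1 repeat, which is scattered through the mouse transcriptome. Rad21 shared 13 bases of exon 1 in its coding sequence, and Rtca 13 bases of exon 5 in its coding sequence.
Itm2a and Lhx1os exon 3: GTGAGGATGACAACA
Erp29 and Lhx1os exon 4: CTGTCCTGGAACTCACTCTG
Rad21 and Lhx1os exon 1: GCAGCGAGATGTC
Rtca and Lhx1os exon 5: AGTGTGAAGGAAT

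To see whether any stretch of Lhx1os went with recovery, each of the 580 stretches of 10 bases in the 589-nt isoform was looked up in the longest transcript of 16507 other tested genes, on the same strand. For each stretch held by at least 20 genes (550 stretches) the share of its genes that were higher in EVEN than in LacZ at an unadjusted edgeR p under 0.05 was taken. The median share was 0.611%. The highest was 10.6% for TGAGGATGAC in exon 3, with 25 of 235 genes. The neighbouring stretches GAGGATGACA (22 of 224), AGGATGACAA (13 of 135) and GGATGACAAC (9 of 104) followed, together with a stretch in exon 5 that only 21 genes held. With ODD over LacZ, where 0.569% of all genes had such a p-value, 2 of the 235 genes with TGAGGATGAC had one. Its reverse complement GTCATCCTCA was held by 147 genes, of which 1 was higher in EVEN. Over the reverse complements of all stretches the highest share was 6.45%, from 2 of 31 genes. With the replicate as a block, where 2.33% of these genes had an unadjusted p under 0.05 and were higher in EVEN, the share for TGAGGATGAC was 16.6% (39 of 235). The highest share was then 19.3%, for the overlapping AGGATGACAA. TGAGGATGAC was picked as the highest of many, after the values had been seen, and no test is attached to it.

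**Figure D3:**
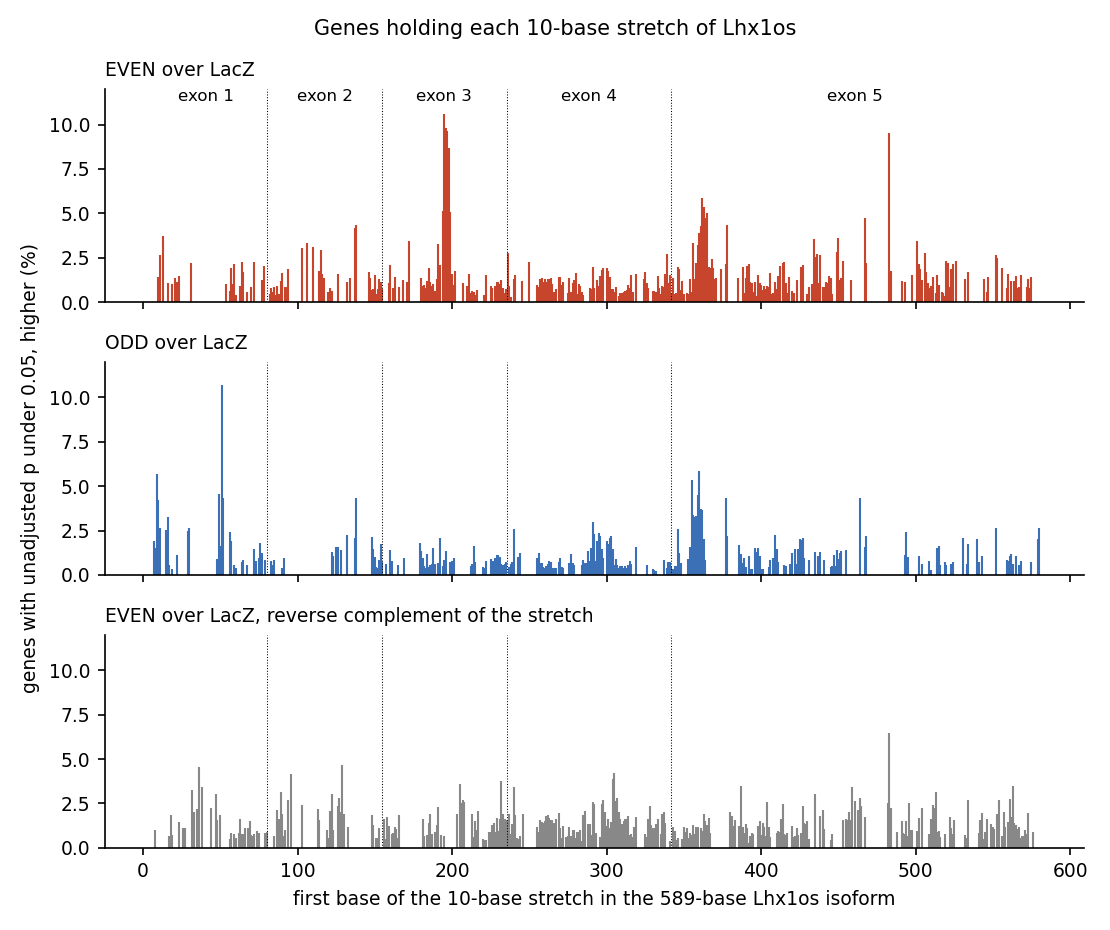
Share of the genes holding each 10-base stretch of Lhx1os that had an unadjusted p under 0.05 and a higher level than in LacZ (y axis, %), by the first base of the stretch (x axis), for stretches held by at least 20 genes. The EVEN share reaches 10.6% at base 195 in exon 3, where the ODD share is 0.851%. At base 362 in exon 5 the shares are 5.84% and 3.65%.

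TGAGGATGAC was held by 235 genes, 1.42% of those with a transcript, and by 5 of the 32 members: Itm2a, Ptma, Trap1a, Gm4617 and Gm9800. Of these, 3 are copies of 1 sequence. The 5 genes entered the choice of the stretch, so their number is no support for it. The same holds for their place among the 11 members higher in EVEN than in ODD, a contrast that uses the same EVEN libraries. In Ptma and Trap1a it lies in the coding sequence within repeats of GAG, GAT and GAC triplets, and the pseudogenes hold the same 30 bases as Ptma.
Itm2a: ctgatatccgTGAGGATGACaacattgcca
Ptma: ctgaggatgaTGAGGATGACgatgtggaca
Trap1a: atgaggatgaTGAGGATGACtactacgacg
Among the 230 other genes with the stretch, 20 (8.7%) had an unadjusted p under 0.05 for EVEN over LacZ, against 1% of all genes. For EVEN over ODD it was 16 (6.96%), against 0.527%. Those 20 genes entered the choice of the stretch too, and EVEN over ODD uses the same EVEN libraries. These shares are therefore no separate support for the stretch. The median log2 ratio over LacZ of the 230 genes was 0.08 and 0.06 with EVEN and 0.00 and 0.00 with ODD. Most of them were thus recovered at the control level.

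Genes were also grouped by their longest exact match to the 15 bases that Itm2a shares with exon 3. The 9681 genes with a match of at most 7 bases had median log2 ratios over LacZ of 0.00 and 0.02 with EVEN in replicates 1 and 2. With 10 bases (580 genes) the medians were 0.05 and 0.08, and with 11 bases (132 genes) 0.08 and 0.08. With 12 to 15 bases (49 genes) they were 0.51 and 0.18. With ODD those 49 genes had medians of -0.02 and -0.01. An unadjusted p under 0.05 for EVEN over LacZ was reached by 14 of the 49 (28.6%), by 3.03% of the genes with 11 bases, 3.97% of those with 10 and 0.661% of those with at most 7. With the replicate as a block these shares were 42.9%, 10.6%, 6.9% and 1.83%. For ODD over LacZ it was reached by 0 of the 49, and for EVEN over ODD by 14. The reverse complement of the stretch was matched over 12 bases or more by 34 genes, with medians of 0.04 and 0.01 and 0 genes at that p-value. The 15 bases span the 10-base stretches with the highest EVEN shares. Genes with a match of 10 bases or more therefore entered the choice of the stretch as well as these counts, which are given as a description only.

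**Figure D4:**
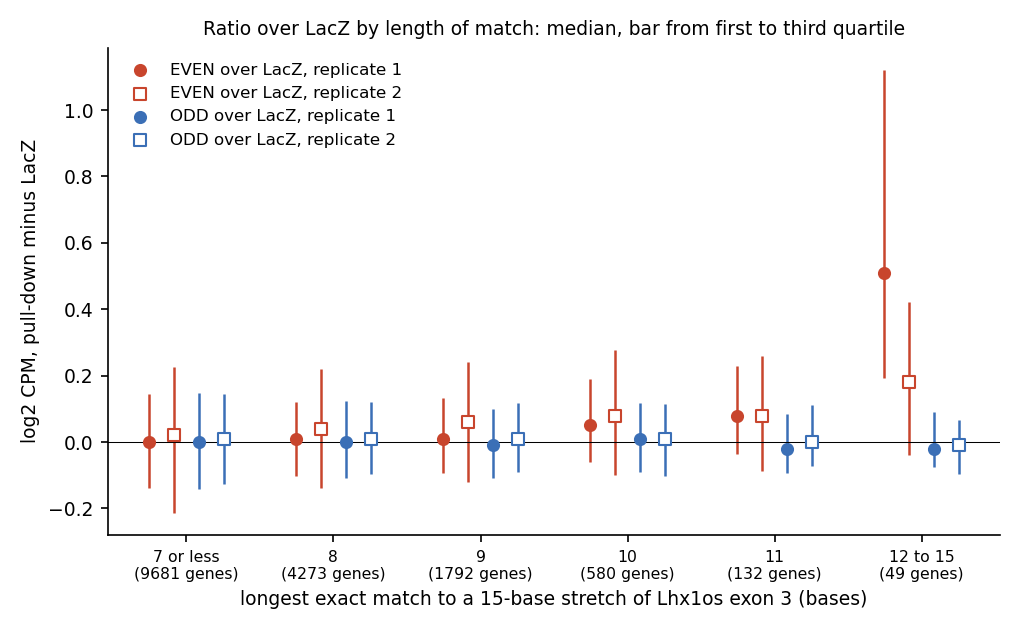
Median log2 ratio over LacZ (points, bars from the first to the third quartile of the genes) by the longest exact match of a gene to a 15-base stretch of Lhx1os exon 3, for EVEN and ODD in both replicates. The EVEN medians of the 49 genes with 12 bases or more are 0.51 and 0.18, and the ODD medians stay near 0 in every class.

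The genes with 12 bases or more included several that were far above LacZ in replicate 1 and missed the rule in replicate 2. Otub1, a deubiquitinating enzyme, shared 14 bases and had log2 ratios of 2.82 and 0.98 with EVEN and of -0.08 and 0.05 with ODD. Tmem29 (13 bases) had 3.03 and 0.39 with EVEN, and Cwc27, a spliceosomal cyclophilin (12 bases), had 2.00 and 0.47. Sltm (14 bases) had 1.64 and 0.39, Impdh1 (13 bases) 1.65 and 0.14, and Tspyl2 (12 bases) 1.44 and 0.84. Other genes with a match of that length were near the control level or below it. The chromatin remodeller Chd4 (12 bases) had 0.08 and 0.18, the dopamine receptor gene Drd1 0.36 and -0.39, and the pseudogene Impdh2-ps -0.28 and -0.69.

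A stretch in exon 5 had raised shares with both probe sets in replicate 1, where both are set against the same LacZ library. AGTGTGAAGG, which lies within the bases shared with Rtca, was held by 137 genes, of which 8 (5.84%) were higher in EVEN and 5 in ODD at an unadjusted p under 0.05. A log2 ratio of at least 0.5 over LacZ was seen in 19% of these genes with EVEN and 19% with ODD in replicate 1, against 7.31% and 6.89% of all genes. In replicate 2 the shares were 7.3% and 6.57%, against 7.43% and 3.96%, so the EVEN share was not raised there. With the replicate as a block, 13 of the 137 (9.49%) were higher at that p-value with EVEN and 13 with ODD, against 2.33% and 1.3% of all genes. The overlapping GAAGTGTGAA gave 4 of 103 genes with EVEN and 6 of 103 with ODD. Exon 1 gave the highest ODD share, 3 of 28 genes for AGCGAGATGT, a stretch within the bases shared with Rad21, and 0 of 28 with EVEN. AGTGTGAAGG had the highest EVEN share in exon 5 among stretches held by at least 100 genes. GAAGTGTGAA had the highest ODD share among all stretches held by that many. Each of these stretches was picked by its share after the values had been seen, so a raised share is no support for it. No test is attached to them, and 2 of the 137 genes are members.

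Low-complexity sequence, the repeats in the title of the study, covered a median of 3.7% of the longest transcript in the 32 members and 2.2% in all genes (dustmasker). More than 10% was masked in 6 of the 32 (18.8%) and in 3.87% of all genes, a limit set after the values were seen. These were Ptma (20.3%), its copies Gm4617 and Gm9800, Trap1a (16.3%), Cplx2 (14.0%) and Ccdc12 (12.9%). Copies of 1 sequence thus make up 3 of the 6. The longest masked stretch lies in the coding sequence in Ptma and Trap1a and in the 3' UTR in Cplx2. In Ccdc12 it lies in a retained-intron transcript. The longest masked stretch of Trap1a holds TGAGGATGAC, shown in capitals.
Trap1a, chrX:139334199-139334264: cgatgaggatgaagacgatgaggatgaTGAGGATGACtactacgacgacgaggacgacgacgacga
Members had shorter transcripts than the genes tested, with a median of 1820 nt against 3220 nt. Their median GC content of 49.8% was near that of all genes, 48.8%. Complementary matches of 15 bases or more to Lhx1os, the kind through which RNAs pair, were found in 3 of 32 members (Erp29, Gm3854 and Lpl; 9.38%) and in 8.68% of all genes. All 3 matches lie in exon 4 of Lhx1os, those of Gm3854 and Lpl within the bases that resemble the B1 repeat.

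Agreement between the experiments across genes was weak. Across the 16524 genes the log2 ratios of replicate 1 and replicate 2, which share no library, had Pearson's r = 0.122 and Spearman's rho = 0.0479. Without the 33 genes, r was 0.0836 and rho 0.0423. Genes are not independent replicates, and no p is given. Among the 2895 genes with a mean count above 1000, r was 0.316 and rho 0.085, and without the members r was 0.202 and rho 0.0754. In replicate 1 alone 306 genes were at least 2-fold above LacZ with 10 counts in EVEN, and in replicate 2 alone 132 were. By the same rule turned round, 184 genes were below LacZ in replicate 1 and 418 in replicate 2. The members with more than 1000 counts on average numbered 10, and 7 had at most 20.

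The 24 genes at least 2-fold below LacZ in both experiments (0.145% of those tested) were of another kind. Of these 0 were protein-coding, against 81.4% of all genes, and 17 were pseudogenes (70.8%, against 3.12%). A mean count of at most 20 was seen in 16, and one above 20 and up to 50 in 7. Whether their class goes with their low level was not tested. Gm29216 had 30 and 28 counts in EVEN against 46 and 77 in LacZ. Gm11223 had 17 and 24 against 30 and 93, and Rpl17-ps10 had 22 and 15 against 40 and 42. Both EVEN libraries were below both LacZ libraries in each, at levels where a few counts move the ratio. The rule that chose these genes makes that likely. Several were low with ODD too, as Rpl17-ps10 with 32 and 14 counts. Others were not, as Gm10305 with 1.05 and 1.35 CPM in ODD against 1.29 and 0.87 in LacZ.

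Genes near Lhx1os were not recovered with it to a like degree. Lhx1, whose start lies 124 bp from that of Lhx1os, had 24.4 and 25.6 CPM in EVEN against 24.2 and 24.5 in LacZ (log2 difference 0.04, SE 0.16, edgeR adjusted p = 1). Of 14 tested genes within 500000 bp, 0 were above LacZ by the 2-fold rule, and their median log2 difference was 0.08, against 0.02 for all genes. Aatf, an RNA polymerase II binding protein that acts in ribosome assembly, was the only one of them with an unadjusted p under 0.05. Among all genes 1% were higher at that edgeR p-value. Aatf had 60.1 and 67.0 CPM against 39.8 and 41.4 (log2 difference 0.65, SE 0.154, edgeR adjusted p = 1), and its groups did not overlap. The share of all genes whose groups did not overlap was not counted.

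Gene lists gave 0 calls each by the test on all libraries. Genes of endoplasmic reticulum folding, a list drawn up with earlier results of these data known, had a median log2 difference of 0.12 over 24 genes. Of these 13 were above 0 in both experiments (54.2%, against 28.6% of all genes) and 1 was below in both (4.17%, against 22.4% of all genes). Erp29, P4hb and Calr were higher at an unadjusted edgeR p under 0.05, as were 1% of all genes. Erp29 is also one of the members chosen by their ratio. P4hb, a protein disulfide isomerase, had 855 and 306 CPM against 253 and 200, and Calr, the chaperone calreticulin, 346 and 376 against 289 and 233. Motor neuron identity genes had a median of 0.05, with 7 of 20 above 0 in both experiments and 6 below. Spinal interneuron markers had a median of -0.14 over 13 genes, and progenitor and glial markers 0.10 over 15, with 9 (60%) above 0 in both experiments and 1 below. Among the neighbours of Lhx1os 7 of 14 (50%) were above 0 in both and 0 below. Mesenchymal markers had a median of 0.26, with 9 of 12 (75%) above 0 in both experiments. Their summed level was 235 and 290 CPM in EVEN and 216 and 198 in LacZ, and its part in the other results was not tested. Mitochondrially encoded genes had a median of -0.17, with 0 of 11 above 0 in both experiments and 7 below (63.6%, against 22.4% of all genes). Long noncoding RNAs had -0.12 over 17 genes, RNA-binding proteins 0.06 over 20, reference messenger RNAs -0.02 over 10, and pluripotency genes -0.26 over 4. Structured small RNAs had -0.25 over 10, with Scarna2 as the only one that met the 2-fold rule.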

How the data were processed

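Whole-number counts for each Ensembl gene were deposited by the authors beside their FPKM values. The deposited FPKM were equal to counts divided by gene length and column total (largest relative difference 4.44e-16). The submitters' processing notes name cutadapt 3.2, Bowtie2 2.4.2, Picard, HTSeq 0.13.5 and GRCm38, with no role, annotation or strand setting. The library kit was stranded per the labels' protocols, and nothing says if counting took strand into account. Of 55471 identifiers, 55230 matched GENCODE M21.

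Counts were tested with edgeR 4.0.16 (R 4.3.3; quasi-likelihood test, TMM, default filter by group, all 8 libraries, group only, two-sided, Benjamini-Hochberg over 16524 genes). TMM factors were 0.965 to 1.03. DESeq2 1.42.0 was run without independent filtering, and with it as an alternative chosen after seeing the data. Within-replicate ratios used CPM with a prior count of 2. The labels give the replicate as a batch, and deviations of same-numbered libraries correlated with r of 0.517 to 0.719, so the numbers pair libraries. Replicates of a group differed beyond counting noise (chi-square per degree of freedom 31.5 to 61.5). P-values measure the spread between these libraries. The script was tested on simulated data. Low-complexity sequence was masked with dustmasker. Fold intervals are 95%.

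The genes described in full are Lhx1os and Lhx1, the genes above LacZ in both replicates by the smaller ratio, those below it, those called, those that differed most between replicates and the members of fixed lists. The genes, lists and tests were chosen with earlier results of these data known, and the 10-base stretches and match classes after seeing these values. Single genes from the match classes were also chosen after their values were seen. Other settings tried are given with the limits.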

Additional observations from a re-analysis of the deposited data

How the results depend on the processing

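Each group had 2 libraries, which limits precision. The count of genes called for EVEN against LacZ was 0 with TMM, RLE or total library sizes, with at least 50 counts in 2 libraries, with only the groups compared and with the replicate block on all 8 libraries. It was 15 with the replicate block on the EVEN and LacZ libraries, 0 with the block on the 6 pull-down libraries (chosen after seeing the data, with 1138 genes at an unadjusted p under 0.05), 8 with DESeq2, 12 with DESeq2 under its default independent filtering (chosen after seeing the data; 4991 genes kept, without Lhx1os) and 72 (60 higher, 12 lower) with no low-count filter. Leaving out 1 library gave 0 to 5 genes; the 5, without EVEN replicate 2, were Arih2, Gpx1, Otub1, R3hdm4 and Shisa5. Lhx1os had log2 differences of 5.25 with DESeq2 (adjusted p = 4.92e-06), 5.28 with no filter (edgeR adjusted p = 4.251e-17) and 4.84 with the block on the EVEN and LacZ libraries (0.01793); over the other settings the edgeR adjusted p was 0.1824 to 1. Without 1 library its difference ranged from 3.49 (without EVEN 1) to 6.04 (without EVEN 2). For EVEN against Input, 935 genes were called, 3182 with the replicate block, 1572 with the block on the EVEN and Input libraries, 1452 with DESeq2, 1860 with no filter, 494 with at least 50 counts in 2 libraries, 477 with only the groups compared, and 0 (without Input 1) to 737 without 1 library. The 33 genes above LacZ became 130 at 1.5-fold (147 below), 2 at 4-fold (Lhx1os and Casq1), 27 and 22 with at least 20 and 50 counts, 36 with a prior count of 0.5 and 24 with total library size alone, where 34 were below. Replicate 2 alone gave 132 (418 below) and replicate 1 alone 306 (184 below). The correlation between experiments was 0.107 to 0.172. The cause of these changes was not tested.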

Other observations

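The genes whose EVEN over LacZ ratio differed most between the experiments were Itm2a, Shisa5, R3hdm4 and Gm9800, which were far higher in replicate 1, and Acsf2 and Ssr2, which were far lower. Acsf2, an acyl-CoA synthetase gene, had 811 CPM in LacZ 1 and between 24.8 and 38.1 CPM in the 5 other pull-down libraries. Ssr2, a subunit of the translocon-associated complex, had 655 CPM in LacZ 1 and between 33.6 and 82.8 CPM in the others. The pseudogene Gm5540 had 228 counts in LacZ 1 and between 5 and 23 in the other pull-down libraries. R3hdm4 had 1330 and 149 CPM in EVEN, 92.6 and 88.1 in LacZ and 104 and 90.5 in ODD. Maged2, an X-linked gene of the MAGE family, had 1260 and 330 CPM in EVEN, 116 and 172 in LacZ and 117 and 197 in ODD, and was called by DESeq2 (adjusted p = 0.04579).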
